A study of Mus musculus with 6 samples.

Results

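The genes described here encode the ligands of the epidermal growth factor receptor (EGFR) and the receptors of the ERBB family: the 7 ligand genes *Epgn*, *Ereg*, *Areg*, *Hbegf*, *Btc*, *Tgfa* and *Egf*, and the 3 receptor genes *Egfr*, *Erbb2* and *Erbb3*. They were chosen by family membership, and all 10 were among the 26579 genes of the count table. Skin came from the dorsal neck of 3 wild type mice (WT) and 3 YAP2-5SA-∆C transgenic littermates (TG), all female and 33 days old. The TG mice express a mildly active mutant of YAP, a coactivator of the TEAD transcription factors, in basal keratinocytes, and have epidermal hyperplasia and abnormal hair follicles. The biopsies were punches of whole skin, so each library is 1 mouse and holds RNA of epidermis, hair follicles, dermis and the tissue beneath. The comparison of TG with WT skin addresses which genes differ in level where YAP is active in the epidermis.

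EGFR is a receptor tyrosine kinase of the keratinocyte surface. Its ligands are made as membrane-anchored precursors, are cut free mainly by the proteases ADAM17 and ADAM10, and bind with a short EGF-like domain held by disulfide bonds. The bound receptor pairs with itself or with ERBB2 or ERBB3 and signals through the RAS-ERK, PI3K and STAT3 routes, and in skin it is known for its part in basal keratinocyte growth and in shaping the hair follicle. Mutations of *Tgfa* and *Egfr* underlie the wavy coats of the waved-1 and waved-2 mice.

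Libraries had 11225705 to 19505036 counts, of which 19.3% to 23.1% fell on genes of the mitochondrial genome. The mouse gene *Yap1* had 142, 125 and 126 CPM in WT replicates 1, 2 and 3 and 136, 144 and 130 CPM in TG replicates 1, 2 and 3, and the groups overlapped. Transgene reads may or may not be part of these counts. CPM, counts scaled to library size, are given after TMM scaling. Summed CPM of the marker lists of 14 cell types and states differed without overlap in 9. Of all tested genes, 15.5% were above WT in every TG library and 18.2% below, against which the counts of single markers that follow can be read. Basal keratinocyte markers summed to 3593 to 4358 CPM in WT and 5903 to 7540 CPM in TG skin (median log2 fold change 0.56, with 4 of the 7 markers not overlapping between the genotypes and 1, *Krt14*, past the FDR threshold of 0.05), and the 6 measured suprabasal markers to 4780 to 5782 CPM against 6052 to 10709 CPM (2 of 6 not overlapping). Hair shaft and inner root sheath markers summed to 14399 to 18634 CPM in WT and to 7571, 1508 and 9562 CPM in TG replicates 1, 2 and 3, with all 12 measured markers lower. The summed markers of stress keratinocytes, sebaceous gland, macrophages and leukocytes, mast cells and endothelium were also higher, with 5 of 7, 5 of 6, 8 of 8, 4 of 5 and 3 of 5 single markers above WT in every TG library. Those of melanocytes were lower (5 of 5). The sums of fibroblasts, T cells, muscle, adipocytes and Schwann cells overlapped, although 5 of 7 single fibroblast markers did not and were higher. *Flg*, *Krt85* and *Trdc* were not matched by name in the table. In such bulk samples, fewer cells of a type and less RNA per cell cannot be told apart.

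4 of the ligand genes lie side by side on chromosome 5 of GRCm38, in the order *Epgn*, *Ereg*, *Areg* and *Btc*, within 375.5 kb from 91027464 to 91402994 that holds no other protein-coding gene in GENCODE M21. The EGF-like domain is what the ligands share, and its coding bases are shown to let the ligands be compared; the 6 cysteine codons, which place the disulfide bonds, are in capitals. *Hbegf* is not shown. Each stretch is joined from 2 coding exons of the plus strand or, for *Btc* and *Egf*, the minus strand: chr5:91031152-91032237 in *Epgn*, chr5:91088496-91089111 in *Ereg*, chr5:91143614-91144364 in *Areg*, chr5:91362421-91366197 in *Btc*, chr6:86263200-86269960 in *Tgfa* and chr3:129686322-129690850 in *Egf*. These are exons 3 and 4 of the transcript used, and exons 20 and 21 in *Egf*.
Epgn: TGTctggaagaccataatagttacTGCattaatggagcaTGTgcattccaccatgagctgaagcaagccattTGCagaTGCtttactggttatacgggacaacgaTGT
Ereg: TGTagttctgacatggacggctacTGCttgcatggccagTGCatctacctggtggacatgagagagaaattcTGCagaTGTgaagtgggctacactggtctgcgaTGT
Areg: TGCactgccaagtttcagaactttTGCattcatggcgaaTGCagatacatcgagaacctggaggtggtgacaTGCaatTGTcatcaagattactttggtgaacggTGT
Btc: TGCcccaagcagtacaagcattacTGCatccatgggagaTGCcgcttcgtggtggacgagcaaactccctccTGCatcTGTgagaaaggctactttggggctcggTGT
Tgfa: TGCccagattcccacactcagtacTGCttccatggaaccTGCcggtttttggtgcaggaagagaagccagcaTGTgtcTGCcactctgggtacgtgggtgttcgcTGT
Egf: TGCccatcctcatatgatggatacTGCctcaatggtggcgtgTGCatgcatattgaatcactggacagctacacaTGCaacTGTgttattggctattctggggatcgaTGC

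The first 5 stretches code for 36 residues each and the *Egf* one for 37. Over the 15 pairs of these domains, 33.3% to 52.8% of the aligned residues were identical. *Epgn* and *Ereg*, which were both higher in TG skin, shared 41.7%, and the closest pair, *Btc* and *Tgfa*, shared 52.8%.

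None of the 10 genes passed a false discovery rate (FDR, Benjamini-Hochberg over all tested genes) of 0.05 in the quasi-likelihood (QL) test of edgeR, against 1.91% of the 15102 genes tested. At an unadjusted p-value under 0.05, *Epgn* and *Ereg* were higher in TG skin (13.3% of all tested genes were higher at that level) and *Egfr* and *Tgfa* were lower (13.0%). Every TG library lay above every WT library for 3 genes, *Epgn*, *Ereg* and *Hbegf* (15.5% of all tested genes did), and below for 2, *Tgfa* and *Egfr* (18.2%). The likelihood-ratio test of edgeR, which the study used, called *Epgn* and *Ereg* higher, where it called 5.52% of all tested genes higher and 4.87% lower. Voom, which the study also used, called 0 of the 10 (1.65% of all tested genes). DESeq2 called 3, *Epgn*, *Ereg* and *Egfr* (10.7% of the 14807 genes to which it gave an adjusted p-value). The median log2 fold change of the 10 was 0.15, and that of all tested genes was -0.01. Ligand genes stood at each end of the range, from *Egf* at -0.53 to *Epgn* at 1.51.

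**Figure D1:**
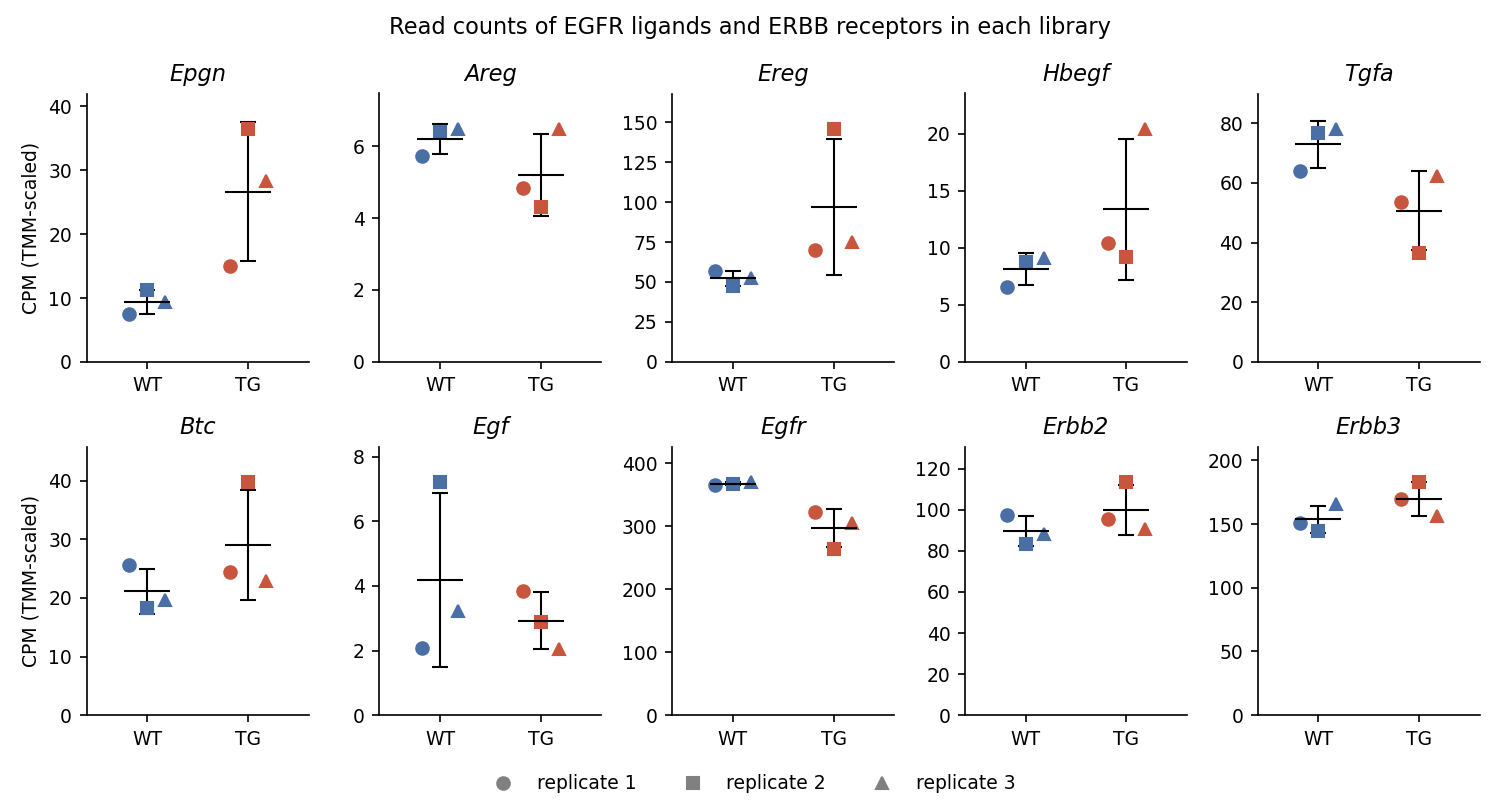
CPM (TMM-scaled, y axis from 0) of the 7 ligand and 3 receptor genes in the 3 WT and 3 TG libraries. Points are libraries, with a shape for each replicate number, and bars are the mean ± SD; *Epgn* in TG skin (15.0 to 36.5 CPM) lies above WT (7.48 to 11.3 CPM), and *Egfr* in TG skin (264 to 323 CPM) lies below WT (366 to 370.5 CPM).

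*Epgn* (ENSMUSG00000035020, chr5:91027464-91035215, plus strand) encodes epigen, an EGFR ligand of low affinity. It had 7.48, 11.3 and 9.32 CPM in WT replicates 1, 2 and 3, and 15.0, 36.5 and 28.3 CPM in TG replicates 1, 2 and 3. All 3 TG libraries were above all 3 WT libraries, and TG replicate 1 was the lowest of them. The counts behind these values were 98 to 215 reads in WT and 269 to 621 reads in TG libraries. Mean CPM was 9.35 ± 1.89 (SD, n = 3) in WT and 26.6 ± 10.9 (SD, n = 3) in TG skin, a 2.85-fold difference. The log2 fold change was 1.51 (standard error, SE, 0.32, 95% interval 0.75 to 2.27), with a QL FDR of 0.0584, 0.0823 in voom, 1.34e-05 in the likelihood-ratio test and 2.68e-05 in DESeq2. Whether *Epgn* is called thus depended on the test, and of the 6 fits without 1 library the QL test called it in 1, without TG replicate 1 (log2 fold change 1.81, FDR 0.0432), with an FDR of 0.0567 to 0.190 in the others. Without TG replicate 2, which had the highest *Epgn* and the lowest hair shaft marker sum, the log2 fold change was 1.22 (FDR 0.0567). The study picked *Epgn* for follow-up from these same libraries, so its direction here is not independent evidence.

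*Ereg* (ENSMUSG00000029377, chr5:91074622-91093646, plus strand) encodes epiregulin, a ligand of EGFR and ERBB4. It had 56.6, 47.3 and 52.8 CPM in the WT libraries and 69.9, 146 and 75.0 CPM in TG replicates 1, 2 and 3. The groups did not overlap, and TG replicate 2 stood far above the other 2 TG libraries, which were close together. The log2 fold change was 0.89 (SE 0.28, 95% interval 0.24 to 1.54), with a QL FDR of 0.103 and 0.00842 in the likelihood-ratio test. Without TG replicate 2 the difference was smaller, 0.49, and the QL test called it (FDR 0.0269). TG replicate 2 was the library with the fewest counts on hair shaft markers and the most on basal and suprabasal keratinocyte markers, and the part of this in the *Ereg* level was not tested. *Ereg* shares 141 exon bases with an antisense gene, *Gm19610*, and the strand setting of the counting is not given in the sources used here.

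*Hbegf* (ENSMUSG00000024486, chromosome 18) encodes heparin-binding EGF-like growth factor, which keratinocytes shed during wound closure. It had 6.54, 8.79 and 9.13 CPM in WT and 10.5, 9.24 and 20.5 CPM in TG replicates 1, 2 and 3. The groups did not overlap, but WT replicate 3 and TG replicate 2 were almost level, and the TG mean rested on TG replicate 3. Its log2 fold change was 0.72 (SE 0.31, 95% interval -0.02 to 1.46), with a QL FDR of 0.200, and it was 0.28 without TG replicate 3.

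*Btc* (ENSMUSG00000082361, chr5:91357261-91402994, minus strand) encodes betacellulin, a ligand of EGFR and ERBB4. It had 25.6, 18.3 and 19.6 CPM in WT and 24.4, 39.8 and 22.8 CPM in TG replicates 1, 2 and 3. The groups overlapped, and TG replicate 2 was again the highest library. TG and WT skin differed by a log2 fold change of 0.46 (SE 0.23, 95% interval -0.10 to 1.01), with a QL FDR of 0.263, and 0.18 without TG replicate 2.

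*Areg* (ENSMUSG00000029378, chr5:91139599-91148432, plus strand) encodes amphiregulin, a keratinocyte autocrine growth factor. It had 5.72, 6.38 and 6.47 CPM in WT and 4.84, 4.29 and 6.49 CPM in TG skin, and the groups overlapped. *Areg* had a log2 fold change of -0.25 (SE 0.17, 95% interval -0.66 to 0.16), with a QL FDR of 0.398. The value moved to -0.11 without TG replicate 2 and to -0.43 without TG replicate 3. *Ereg* and *Btc*, on either side of it on chromosome 5, had log2 fold changes of the other sign, as had *Epgn* at the end of the cluster, and differences between genes were not tested.

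*Tgfa* (ENSMUSG00000029999, chr6:86195223-86275719, plus strand) encodes transforming growth factor alpha, a high-affinity EGFR ligand. It had 63.9, 76.6 and 78.2 CPM in WT and 53.7, 36.4 and 62.2 CPM in TG replicates 1, 2 and 3. All TG libraries were below all WT libraries, by the least margin for TG replicate 3, and TG replicate 2 was the lowest. The log2 fold change was -0.52 (SE 0.19, 95% interval -0.97 to -0.07), with a QL FDR of 0.143 and 0.0823 in the likelihood-ratio test. Without TG replicate 2 the log2 fold change was -0.31. The hair shaft and inner root sheath markers were lowest in that library too, and their part in the *Tgfa* level was not tested. *Tgfa* shares 118 exon bases with *Gm43917* on the other strand.

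*Egf* (ENSMUSG00000028017, chr3:129677565-129755316, minus strand), the founding member, had 33 to 138 reads a library. It had 2.09, 7.22 and 3.23 CPM in WT and 3.84, 2.88 and 2.06 CPM in TG skin. WT replicate 2 alone was high, and the other 5 libraries of both genotypes mixed. The log2 fold change of *Egf* came to -0.53 (SE 0.46, 95% interval -1.62 to 0.57), with a QL FDR of 0.503, and without WT replicate 2 its sign turned to 0.17. A difference of *Egf* was not detectable at this depth and spread. It shares 500 and 607 exon bases with *6330410L21Rik* and *Gm42697* on the other strand.

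Among the receptors, *Egfr* (ENSMUSG00000020122, chr11:16752203-16918158, plus strand) encodes the receptor that all 7 ligands bind. It had 366, 367 and 370.5 CPM in the WT libraries and 323, 264 and 305 CPM in TG replicates 1, 2 and 3. The WT libraries were within a few CPM of one another, all TG libraries were below them, and TG replicate 2 was the lowest. The fold of TG over WT was 0.808, a log2 fold change of -0.31 (SE 0.08, 95% interval -0.50 to -0.11), with a QL FDR of 0.0786, 0.0723 in voom, 0.184 in the likelihood-ratio test and 0.0214 in DESeq2. For *Egfr* the likelihood-ratio test gave the highest of these FDRs, whereas for *Epgn* it gave the lowest.

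*Erbb2* (ENSMUSG00000062312, chr11:98412470-98437716, plus strand) encodes the partner receptor that binds no known ligand. It had 97.5, 83.4 and 88.2 CPM in WT and 95.6, 114 and 90.7 CPM in TG skin, with a log2 fold change of 0.16 (SE 0.10, 95% interval -0.08 to 0.40) and a QL FDR of 0.367. *Erbb3* (ENSMUSG00000018166, chr10:128567523-128589652, minus strand) encodes a neuregulin receptor with little kinase activity of its own. It had 151, 145 and 166 CPM in WT and 170, 183 and 156 CPM in TG skin, with a log2 fold change of 0.14 (SE 0.08, 95% interval -0.05 to 0.34) and a QL FDR of 0.313. Both overlapped between the genotypes, and both intervals included 0. Without TG replicate 2, the value of *Erbb2* was 0.07. *Erbb2* shares 9 exon bases with *Mien1* on the other strand.

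**Figure D2:**
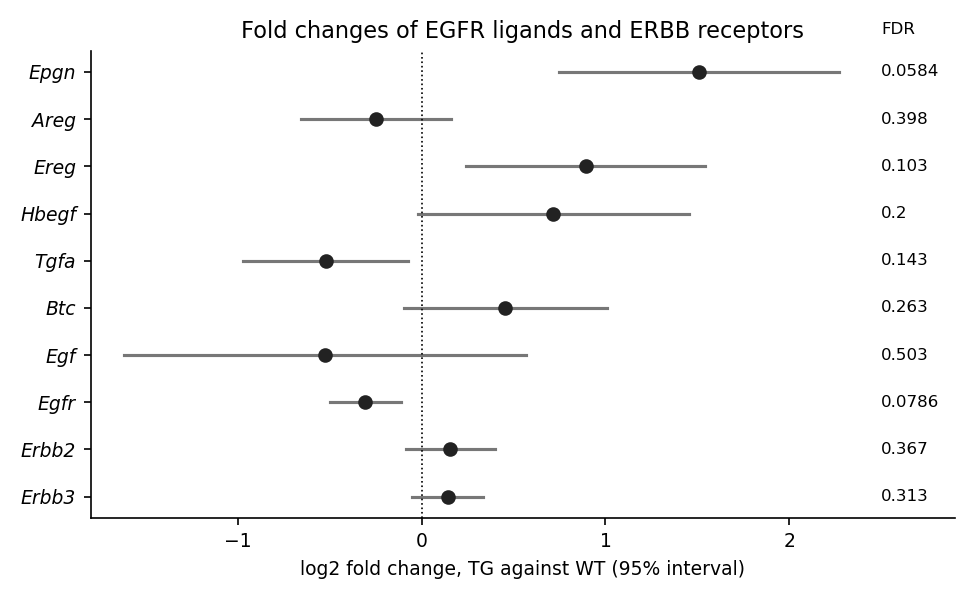
Log2 fold change of TG against WT skin (x axis) with its 95% interval for each of the 7 ligand and 3 receptor genes, and the FDR of edgeR's QL test at the right. Intervals of *Epgn* (0.75 to 2.27) and *Ereg* (0.24 to 1.54) lie above 0, those of *Tgfa* (-0.97 to -0.07) and *Egfr* (-0.50 to -0.11) lie below, and no FDR is under 0.05.

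Levels of different genes were compared as CPM per kilobase of exon (union of all annotated exons). In WT skin the receptors led, with *Egfr* at 32.5 ± 0.218, *Erbb3* at 25.6 ± 1.79 and *Erbb2* at 17.2 ± 1.38 CPM per kilobase (SD, n = 3 each), and the libraries of each lay apart from those of the next. *Ereg* (12.7 ± 1.14) and *Tgfa* (11.2 ± 1.21) were the ligand genes with the highest levels per kilobase in WT skin and overlapped with each other. This order depended on the length used: per kilobase of the longest transcript, *Tgfa* (14.1 to 17.3 in the WT libraries) lay above *Ereg* (11.4 to 13.7) and overlapped with *Erbb2* (16.6 to 19.5). *Epgn* (5.17 ± 1.04), *Areg* (5.09 ± 0.339) and *Btc* (4.68 ± 0.860) followed per kilobase and could not be ordered within their spread. *Hbegf* (1.69 ± 0.291) and *Egf* (0.371 ± 0.239) were the lowest and stood apart.

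In TG skin, per kilobase of all exons, *Erbb3* (28.2 ± 2.26), *Egfr* (26.2 ± 2.63), *Ereg* (23.5 ± 10.3) and *Erbb2* (19.2 ± 2.32) each overlapped with the next in that order, and *Epgn* (14.7 ± 6.03) came before *Tgfa* (7.82 ± 2.03) and overlapped with it. Below them, *Btc* (6.42 ± 2.08), *Areg* (4.29 ± 0.941) and *Hbegf* (2.77 ± 1.28) again overlapped with their neighbours, and only *Egf* (0.260 ± 0.0789) stood apart from the gene above it. This order too depended on the length: per kilobase of the longest transcript, *Egfr* (29.1) led *Erbb3* (28.2) in TG skin as it did in WT skin, and *Hbegf* (4.63) came before *Areg* (4.29), with overlap in both pairs. The sum of the 3 receptor genes over the sum of the 7 ligand genes, per kilobase, was 1.92, 1.76 and 1.84 in the WT libraries and 1.65, 0.999 and 1.21 in TG replicates 1, 2 and 3. All TG ratios were below all WT ratios, and the mean was 1.84 ± 0.0822 in WT and 1.29 ± 0.335 in TG skin (SD, n = 3).

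**Figure D3:**
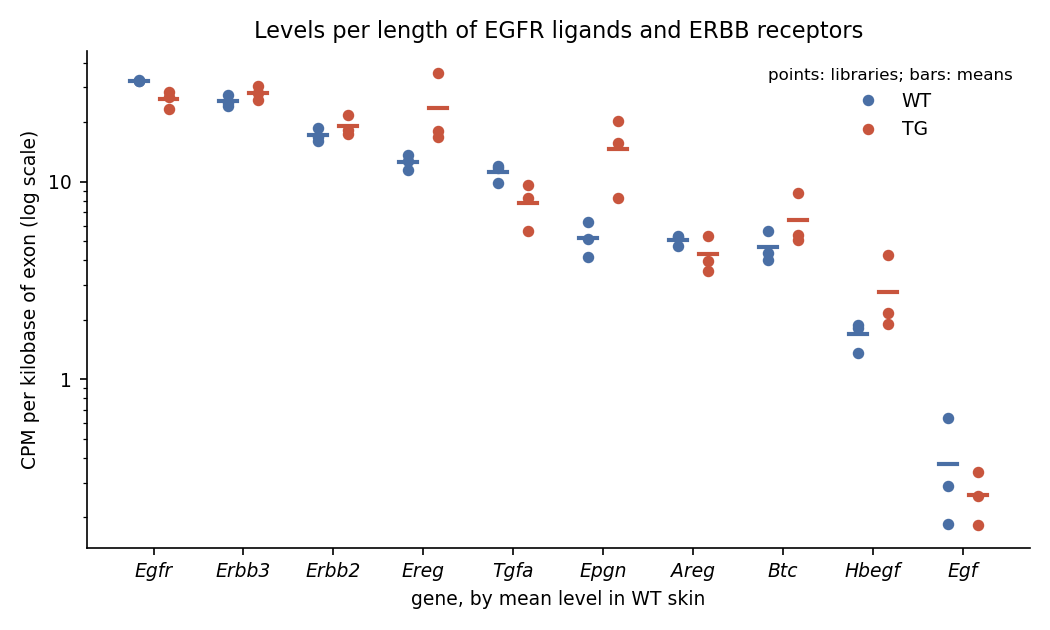
Levels of the 7 ligand and 3 receptor genes as CPM per kilobase of exon (log scale), ordered by the WT mean, with points for libraries and bars for means of the 3 WT and 3 TG libraries. *Egfr* leads in WT skin (32.5), while *Ereg* (12.7 against 23.5) and *Epgn* (5.17 against 14.7) are higher in TG skin.

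Since the ligands and receptors are made in keratinocytes among other cells, each was also set against the summed CPM of 7 basal keratinocyte markers in the same library. Per 1000 CPM of these markers, *Epgn* had 1.72, 3.13 and 2.41 CPM in WT and 2.53, 4.85 and 4.53 CPM in TG skin, and the groups overlapped. *Ereg* had 13.0, 13.2 and 13.7 against 11.8, 19.4 and 12.0, so that TG replicate 2 was above WT and the other 2 TG libraries were below it. *Hbegf* overlapped as well, with 1.50, 2.45 and 2.36 against 1.77, 1.22 and 3.27. On this scale 0 members were higher in all TG libraries, against 0.569% of all tested genes. The summed basal markers were themselves higher in every TG library, so a gene with the same CPM in both genotypes comes out lower on this scale.

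5 of the 10 genes were lower in every TG library than in every WT library per 1000 CPM of basal markers, where 83.0% of all tested genes were: *Areg*, *Tgfa*, *Egfr*, *Erbb2* and *Erbb3*. *Egfr* had 84.0, 102 and 95.8 per 1000 in WT and 54.7, 35.1 and 48.7 per 1000 in TG replicates 1, 2 and 3. *Tgfa* had 14.7, 21.3 and 20.2 against 9.09, 4.82 and 9.93. *Erbb2* and *Erbb3*, whose CPM overlapped between the genotypes, had 0.669 and 0.662 times the WT mean per marker CPM. With basal and suprabasal markers together as the divisor, 0 members were higher (0.781% of all tested genes) and 5 were lower (73.2%). The share of members that were lower was below that of all tested genes with either divisor, and no test was run on the ratios or on this difference.

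**Figure D4:**
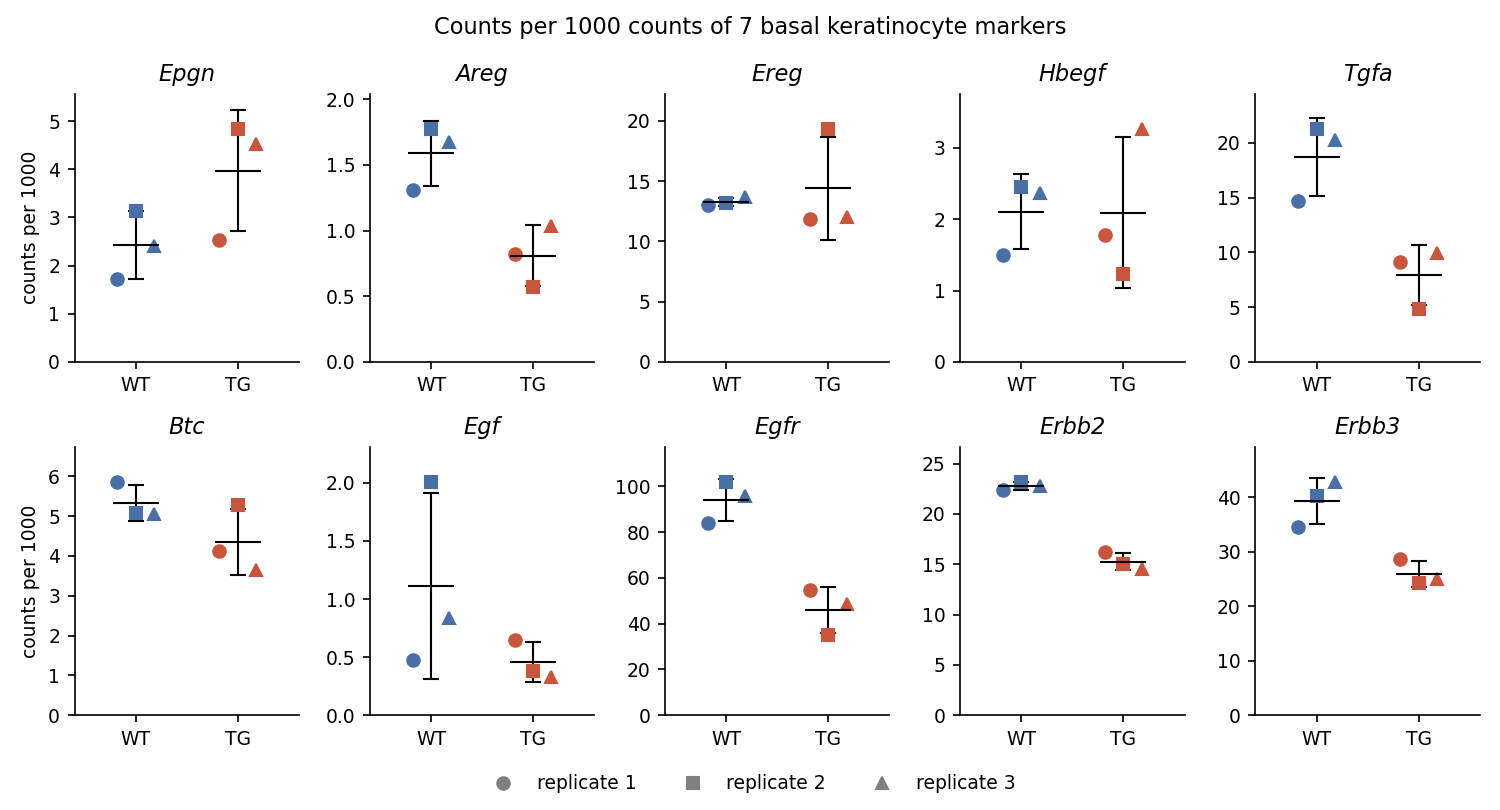
CPM of each ligand and receptor gene per 1000 summed CPM of 7 basal keratinocyte markers in the same library (y axis from 0), with points for the 3 WT and 3 TG libraries, a shape for each replicate number, and bars for the mean ± SD. *Egfr* (84.0 to 102 in WT, 35.1 to 54.7 in TG) separates the genotypes and *Ereg* (13.0 to 13.7 and 11.8 to 19.4) does not. On this scale 83.0% of all tested genes were lower in every TG library than in every WT library.

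Of the other ERBB ligands and receptor, *Erbb4* and *Nrg3* had few reads. *Erbb4*, the fourth receptor of the family, had 1 to 19 reads a library, and *Nrg3* had 5 to 6 reads in each WT library and 0, 1 and 0 in the TG libraries, so both were below the filter of 1 CPM in 3 libraries and were not tested. *Nrg4*, a ligand of ERBB4, had 14.1, 12.8 and 10.1 CPM in WT and 14.6, 18.3 and 23.2 CPM in TG skin, a log2 fold change of 0.60 (SE 0.19), with a QL FDR of 0.114 and 0.0406 in the likelihood-ratio test. The groups did not overlap, but TG replicate 1 lay next to WT replicate 1. Per kilobase of exon, *Nrg4* had 2.03 in WT and 3.08 in TG skin. *Nrg1* and *Nrg2*, ligands of ERBB3 and ERBB4, overlapped, with log2 fold changes of -0.32 (QL FDR 0.576) and -0.33 (QL FDR 0.301). Single libraries decided both sizes: *Nrg1* was at -0.0060 without TG replicate 2 and at -0.69 without TG replicate 3, and *Nrg2* was at -0.19 without WT replicate 2.

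Of the 79 genes of the surrounding pathway lists, 76 were tested and 2 passed an FDR of 0.05 in edgeR's QL test, both higher in TG skin, where 1.91% of all tested genes passed. The median log2 fold change of the 76 was 0.03. *Adam8*, a membrane metalloprotease of leukocytes and epithelia, was the 1 gene called among the 11 of ligand release. It rose from 11.4, 11.4 and 12.4 CPM in WT to 25.3, 30.6 and 28.1 CPM in TG skin, a log2 fold change of 1.25 (SE 0.09) with a QL FDR of 0.0101. No TG library came near the WT range. The call of *Adam8* was lost without WT replicate 2 (FDR 0.10), WT replicate 3 (FDR 0.0512) or TG replicate 3 (FDR 0.0819), fits in which that test called 0 genes of the whole table, while its log2 fold change stayed between 1.20 and 1.34. *Adam17*, the main sheddase of several EGFR ligands and named here after its values were seen, had 93.6, 86.9 and 88.4 CPM against 103, 118 and 102 CPM. Its log2 fold change was 0.26 (SE 0.07), with an FDR of 0.0870 in the QL test, 0.0895 in voom, 0.299 in the likelihood-ratio test and 0.0433 in DESeq2. The summed markers of macrophages and leukocytes, cells that also express *Adam8*, were 339 to 431 CPM in WT and 523 to 565 CPM in TG skin (8 of 8 above WT in every TG library), and their part in the *Adam8* level was not tested.

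Among 19 feedback inhibitors of EGFR and ERK signalling, 0 passed the FDR in edgeR's QL test, voom, DESeq2 or the likelihood-ratio test. Of all tested genes, the QL test called 1.91% and voom 1.65%, and the likelihood-ratio test called 5.52% higher and 4.87% lower. DESeq2 called 10.7% of the genes to which it gave an adjusted p-value. Log2 fold changes of the 19 ran from -0.51 to 0.27 with a median of 0.02. At an unadjusted p-value under 0.05, 4 of the 19 were lower and 1 was higher, beside 13.0% lower and 13.3% higher of all tested genes. These 5 are named here after their values were seen. *Cblb*, a ubiquitin ligase, was the higher one, and the lower ones were *Spry1* and *Spry4* (Sprouty proteins), *Errfi1* (the EGFR kinase inhibitor MIG6) and *Dusp6* (an ERK phosphatase), with log2 fold changes of -0.28, -0.36, -0.31 and -0.51. *Dusp6* had 66.2, 73.9 and 76.3 CPM in WT and 57.1, 33.1 and 61.3 CPM in TG skin, so TG replicate 2 was the lowest library for this gene as for *Tgfa* and *Egfr*, and its log2 fold change was -0.27 without that library. That of *Spry4* was -0.23 at its smallest over the fits without 1 library.

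None of the 24 adaptor, RAS-ERK, PI3K and STAT3 genes passed the FDR in edgeR's QL test, with 4 higher and 3 lower at an unadjusted p-value under 0.05 (13.3% and 13.0% of all tested genes) and a median log2 fold change of -0.02. The extremes, named after their values were seen, were *Stat3* (0.51, QL FDR 0.0541) and the ERK pathway kinase *Braf* (-0.65, QL FDR 0.0588), and the likelihood-ratio test called both (5.52% of all tested genes higher and 4.87% lower). DESeq2 called 4 of the 24, *Stat3*, *Braf*, *Gab2* (0.44) and *Mapk3* (0.32), the last 2 also named after their values were seen. It called 10.7% of the genes to which it gave an adjusted p-value. Voom called 0 of the 24 (1.65% of all tested genes). Of 19 growth factor response genes tested, 1 passed. *Fosb*, an immediate early gene of the AP-1 family, had 0.989, 0.942 and 0.856 CPM in WT and 5.28, 3.00 and 3.12 CPM in TG skin, a log2 fold change of 2.02 (SE 0.28) with a QL FDR of 0.0377. It rested on 9 to 18 reads a library in WT and 50 to 95 reads in TG skin, and its call was lost without WT replicate 1 (FDR 0.0640), WT replicate 2 (0.178), WT replicate 3 (0.135) or TG replicate 3 (0.0906), while its log2 fold change stayed between 1.98 and 2.14 in those 4 fits. In all but the first of them the QL test called 0 genes of the whole table. *Fosb* met the filter of 1 CPM in 3 libraries only with the TG libraries, the group in which it was high. The likelihood-ratio test called 4 of the 19 higher (5.52% of all tested genes), *Fosb*, *Fos*, *Fosl1* and *Plaur*, and 1 lower (4.87%), *Etv4*, all but *Fosb* named here after their values were seen. DESeq2 called 4 of these 19 and voom 1. The study also picked *Fosl1* from these libraries, and *Fosl1* shares 1163 exon bases with *Ccdc85b* on the other strand. *Fos* was 11.9, 11.7 and 10.4 CPM in WT and 32.2, 10.6 and 25.9 CPM in TG skin, where TG replicate 2 lay within WT. TG replicate 2 was also the library with the highest *Ereg* and *Epgn*. In it, *Fosb*, *Fosl1* (5.06 CPM, WT 1.24 to 2.09) and *Plaur* (5.35 CPM, WT 2.56 to 4.07) were above WT. *Etv4* (12.2 CPM, WT 23.4 to 30.1) was below WT there. A relation of these levels to the ligands was not tested.

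**Figure D5:**
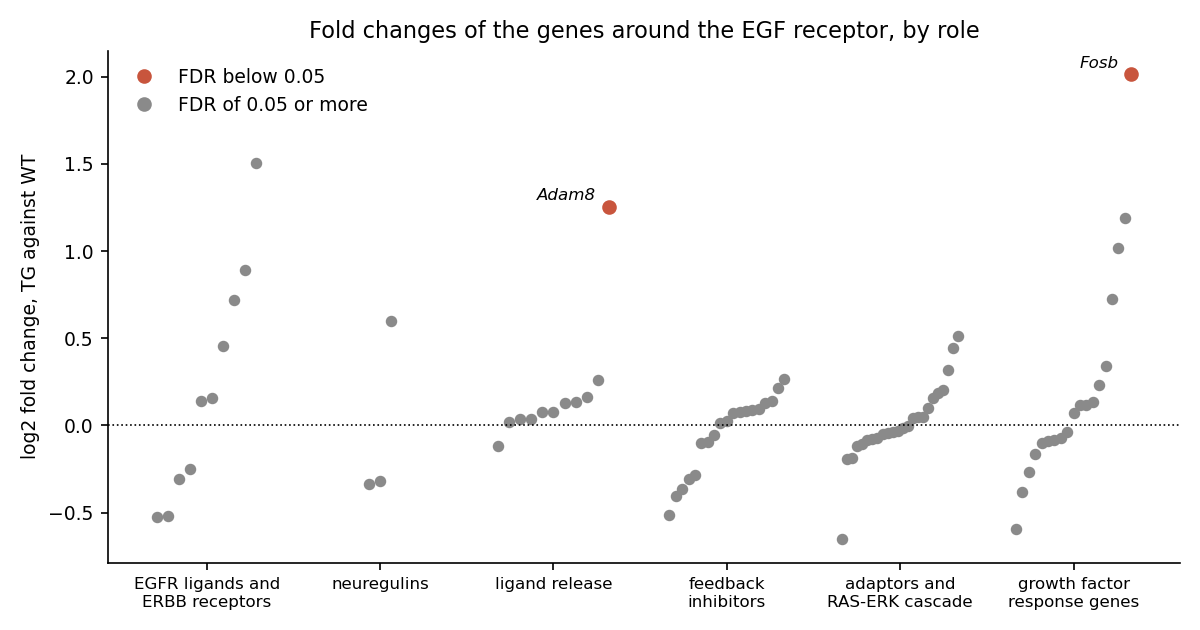
Log2 fold change of TG against WT skin (y axis) of each tested gene in the lists around the EGF receptor (x axis, by role), with genes in order of their value within a list. Only *Adam8* (1.25) and *Fosb* (2.02) pass an FDR of 0.05 in edgeR's QL test, and *Epgn* (1.51) lies highest among the EGFR ligands and ERBB receptors. *Fosb* met the count filter only with its TG libraries.

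YAP acts on DNA through TEAD factors, so the 250 bases before the RefSeq starts (GRCm38.p6) were searched on both strands for the TEAD core GGAATG and, as a partner site, for the AP-1 letters TGACTCA or TGAGTCA. Windows were found for 7 members, 8 windows in all, and *Ereg* and *Erbb3* had no window and *Hbegf* was not searched. *Erbb2* held the TEAD core, 88 bases before its start, and no member held the AP-1 letters. Over all 32851 windows of this length, 12.6% held the TEAD core and 4.46% the AP-1 letters. The study looked for its motifs in untranslated regions at the ends of transcripts. Those regions, enhancers and other sites outside the windows were not searched here.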

How the data were processed

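RNA was extracted from whole skin biopsies of 3 WT and 3 TG mice. The deposited values are raw counts of reads per Ensembl gene. The authors made them by mapping paired-end reads to GRCm38 with TopHat2 2.0.12 and Bowtie2 2.1.0 (versions per the submitters' processing notes; the methods name another TopHat2 version) and counting uniquely mapped reads with HTSeq-count. The labels name a stranded total RNA kit and the methods mRNA libraries. The annotation release and strand setting of the counting are not given in the sources used here, so genes with exons that overlap on the other strand (*Ereg*, *Tgfa*, *Egf*, *Erbb2*, *Fosl1*, *Nrg1*, *Nrg4*, *Adam8*, *Adam17*, *Braf*, *Stat3* and *Spry1* among those described) are uncertain.

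Of these, 15102 genes reached 1 CPM in 3 or more libraries and were TMM-scaled. Tests were run across all of them in R 4.3.3 with edgeR 4.0.16 (glmQLFit and glmQLFTest, genotype as the only term), and with edgeR's likelihood-ratio test, limma 3.58.1 (voom) and DESeq2 1.42.0 as alternatives, each with Benjamini-Hochberg adjustment and a threshold of 0.05. With 3 mice against 3, no exact permutation test of a single gene can pass that threshold. The scripts were tested on simulated data. Further alternatives changed the scaling (RLE, upper quartile) or the count filter, or used library sizes without mitochondrial genes, a replicate block, each library left out in turn, and other lengths and marker divisors.

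Positions and exon lengths came from GENCODE M21 (558 identifiers, with 1.16% of counts, were absent), and promoter windows from RefSeq. The members and the pathway and marker lists were chosen with earlier results of these data known. All members were named, of the pathway lists the genes with an FDR below 0.05 (up to 6 a list) and *Erbb4* and *Nrg1* to *Nrg4*, and other genes were named after their values were seen. RT-PCR, protein and cell line experiments were not analysed here.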

Additional observations from a re-analysis of the deposited data

How the results depend on the processing

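The count of called members was 0 in the main test and under RLE and upper-quartile scaling, a filter of at least 10 counts in every sample, voom and library sizes without mitochondrial genes. It was 1 (*Epgn*) without a low-count filter, 2 with the likelihood-ratio test and 3 with DESeq2, and ranged from 0 to 1 over the fits without 1 library. The count of called pathway genes, 2 in the main test, was 3 under upper-quartile scaling and 3 without a low-count filter, each time with *Stat3* added. With at least 10 counts in every sample it was 1, as *Fosb*, with 9 reads in WT replicate 3, was not tested. The count was 9 with the likelihood-ratio test and 11 with DESeq2, and ranged from 0 to 5 over the fits without 1 library. Over all tested genes the count was 288 in the main test, 497 without a low-count filter, 1568 with the likelihood-ratio test, 1590 with DESeq2 and 0 to 816 over the fits without 1 library. Members not overlapping numbered 3 to 5 higher and 2 to 3 lower over those fits, in which 18.6% to 23.6% of all tested genes were higher and 18.9% to 24.5% lower without overlap. The 1 member whose sign turned was *Egf*, whose log2 fold change ranged from -0.86 to 0.17 over those fits and was above 0 without WT replicate 2. With the longest transcript in place of the union of exons, the mean receptor to ligand ratio was 1.65 in WT and 1.20 in TG skin. The libraries had 1.75, 1.56 and 1.65 in WT and 1.52, 0.971 and 1.11 in TG replicates 1, 2 and 3. TG replicate 1 thus lay close to WT replicate 2. The causes of these changes were not tested.

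Same-numbered libraries did not deviate together (correlations of their deviations from the genotype means of -0.33, -0.23 and -0.05 for replicates 1, 2 and 3), and the numbers mark no pairing in the labels. With the replicate block, the count of called genes was 0 of the whole table (2949 at an unadjusted p-value under 0.05), 0 for members and 0 for pathway genes, and no library correlated best with its own number. The reads behind *Egf*, *Fosb*, *Nrg3* and *Erbb4* were few, which limits what their values can show.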
